A study of Mus musculus with 12 samples.

Results

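Lysosomes are the acidic compartments in which cells break down protein, glycan and lipid. A set of 38 genes for lysosomal hydrolases, their activator proteins, lysosomal membrane proteins and the transcription factors that act on such genes was followed in BV2, a mouse cell line of microglial origin. The genes were chosen by symbol, and all 38 of 38 were found among the 24934 genes of the deposited count table. Gene expression was measured by RNA sequencing of strand-specific mRNA libraries, in 3 groups of 4 libraries. The Acacetin group is labelled only with acacetin, a plant flavone. By the series' design text the cells went through oxygen and glucose deprivation and re-oxygenation and then received 10 µM of the compound, and the group was read that way. The OGD group went through the deprivation and re-oxygenation, a culture model of stroke. The Control group carries no treatment in its labels. All 3 groups are cultures of the same line. Nothing in the labels ties the 4 libraries of a group to separate cultures, so p-values measure the spread between these samples, which may be technical.

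Lysosomal hydrolases are made as inactive precursors in the secretory pathway. Most are tagged with phosphorylated mannose and sorted to the lysosome, where a proton pump keeps the interior acidic. The transcription factors TFEB, TFE3 and MITF bind a short element, called CLEAR, near the start of many of these genes, and the kinase complex mTORC1 holds TFEB in the cytosol of well-fed cells. In microglia, the phagocytes of the brain, these enzymes digest engulfed debris, and loss of many of them in humans causes storage diseases that affect the nervous system.

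The library depth was between 16427886 and 32693066 counted reads. Levels are given as CPM, reads put on a common depth by TMM scaling, which compares 1 gene between libraries, or as the authors' FPKM, which also divides by gene length. The 18S rRNA share of reads was 13.1% in OGD 2 and 21.3% in OGD 3, against 0.137% to 1.86% in the other libraries. Libraries also differed in how expression moved with gene length, with a slope of -0.177 in Acacetin 1 and 0.258 in Acacetin 3 (log2 CPM, relative to the mean of all libraries, per doubling of length). Of the 9 myeloid marker genes, 9 were over 1 CPM in every library, with Lyz2 the highest at up to 2295 CPM. Their summed level was 2220 to 3482 CPM in Acacetin, 2664 to 3984 CPM in OGD and 2942 to 3694 CPM in Control. Neuronal markers did not pass 0.162 CPM, fibroblast markers 0.265 CPM and epithelial markers 0.400 CPM in any library. Astrocyte, endothelial and oligodendrocyte markers did not pass 1.25, 2.02 and 2.32 CPM. The markers Syt1, Aqp4, Mog, Dcn and Epcam were not among the listed genes.

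The start regions of these genes were read first, since the element the TFEB family binds lies near the start of many lysosomal genes. RefSeq windows of build GRCm38.p6, from 250 bases before to 50 bases after each annotated start, matched 34 of the 38 genes. The motif GTCACGTG, the common part of the CLEAR element, was searched on both strands, so that its other-strand form CACGTGAC counts too. It occurred in 9 of the 34 genes (26.5%), against 689 of the 27025 gene symbols with a window (2.55%). Those genes were Cln3, Ctsa, Ctsd, Gla, Glb1, Lamp1, Lgmn, Mcoln1 and Naglu. A gene was counted where any of its windows held the motif. Cln3, Ctsa and Lgmn each also had a window, at another annotated start, without it. The shorter E-box CACGTG, which lies inside the longer motif, occurred in 12 of 34 genes (35.3%), against 8.09% of all symbols, and the full palindrome, which is GTCACGTG followed by AC, occurred in 1 of the 34 (Cln3), against 0.370% of all symbols. A match describes the letters in these windows and does not show that a factor was bound.

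The 250 bases before the start are printed for the 3 motif-bearing genes that changed in OGD against Control, in the direction of transcription and with the motif in capitals. Cln3 and Gla rose and Naglu fell, as given further on.
Cln3 (chr7:126583237-126583486, minus strand): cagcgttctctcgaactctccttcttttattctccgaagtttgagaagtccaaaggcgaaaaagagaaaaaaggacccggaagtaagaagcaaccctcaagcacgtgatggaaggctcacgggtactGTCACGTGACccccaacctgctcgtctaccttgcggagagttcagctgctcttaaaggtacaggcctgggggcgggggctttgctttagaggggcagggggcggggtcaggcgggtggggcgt
Gla (chrX:134601006-134601255, minus strand): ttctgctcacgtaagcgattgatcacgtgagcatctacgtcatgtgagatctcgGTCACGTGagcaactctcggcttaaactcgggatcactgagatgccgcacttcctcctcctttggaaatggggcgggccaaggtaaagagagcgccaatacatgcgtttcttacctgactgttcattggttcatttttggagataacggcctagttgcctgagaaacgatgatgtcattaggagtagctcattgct
Naglu (chr11:101069844-101070093, plus strand): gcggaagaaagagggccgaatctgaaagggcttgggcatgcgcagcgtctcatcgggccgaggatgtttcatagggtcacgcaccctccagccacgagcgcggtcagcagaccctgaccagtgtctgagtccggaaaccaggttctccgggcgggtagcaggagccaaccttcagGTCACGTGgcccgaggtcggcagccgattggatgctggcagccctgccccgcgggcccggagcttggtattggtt
Relative to the start that follows the printed bases, the motif began at position -123 in Cln3, at -196 in Gla and at -75 in Naglu.

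For the other 6 genes the bases around the motif are shown, since none of these genes was called in either comparison with Control although they hold the same letters.
Ctsa (chr2:164833748-164833777, plus strand): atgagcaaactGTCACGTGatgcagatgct
Ctsd (chr7:142388048-142388077, minus strand): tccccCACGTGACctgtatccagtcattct
Ctsd (chr7:142387907-142387936, minus strand): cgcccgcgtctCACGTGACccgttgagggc
Mcoln1 (chr8:3500435-3500464, plus strand): gggtcgcgcttGTCACGTGttcagttcagg
Mcoln1 (chr8:3500463-3500492, plus strand): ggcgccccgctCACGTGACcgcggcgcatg
Lamp1 (chr8:13159122-13159151, plus strand): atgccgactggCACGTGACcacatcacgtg
Glb1 (chr9:114401017-114401046, plus strand): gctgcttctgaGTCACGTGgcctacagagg
Lgmn (chr12:102439125-102439154, minus strand): atggaatgtctGTCACGTGgtccattttat
Ctsd and Mcoln1 held the motif at a pair of places before the start. Ctsa held a further match inside the window but past the start, CACGTGAC at position 5, which is not printed. Among the 9 motif-bearing genes, 2 rose, 1 fell and 6 were not called in OGD against Control. Of all 13249 tested genes 28.8% were called there, 16.2% higher and 12.6% lower, and no difference from that share was tested.

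The cells transcribed the set over a wide range. On the length-scaled FPKM scale the cathepsins Ctsz, Ctsd and Ctsb led, with means over 12 libraries of 1055, 867 and 518 FPKM. Lgmn followed at 376 FPKM, Psap at 326 FPKM, Grn at 273 FPKM and Lamp1 at 228 FPKM. At the low end were Tfe3 at 2.58 FPKM, Ctso at 0.387 FPKM and Mitf at 0.308 FPKM. Mitf rested on 12 to 177 reads a library and Ctso on 29 to 104, so both were measured coarsely. The depth behind the authors' FPKM was 1.18 times the counted reads in OGD 3 and 0.971 to 1.05 times in the other 11 libraries. OGD 3 is thus scaled lower in FPKM than by its counted reads. CPM here is TMM-scaled, so these ratios do not show how FPKM and CPM differ in a library. TMM scaling moved other libraries too, up in OGD 2 (set sum 19930 CPM at 1.61% of reads) and down in Acacetin 3 (12983 CPM at 1.71%).

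**Figure D1:**
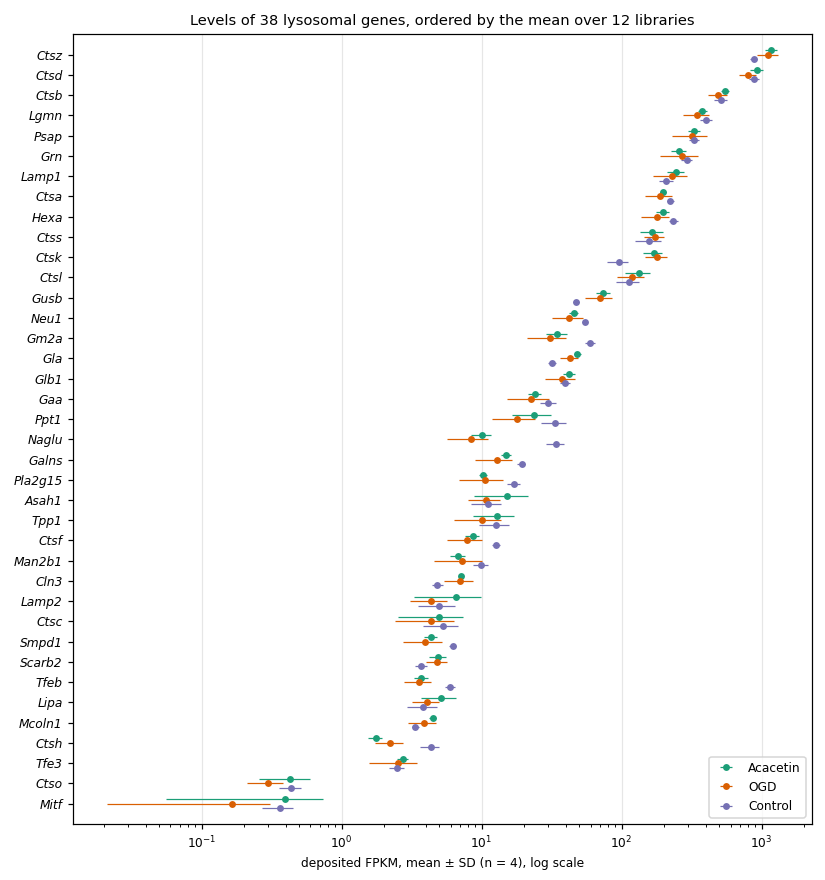
Mean deposited FPKM (log scale, horizontal axis) of each of the 38 genes, ordered by the mean over 12 libraries, with bars for the SD of 4 libraries; green is Acacetin, orange OGD and purple Control. Ctsz leads at 1055 FPKM and Mitf is last at 0.308 FPKM, and the groups separate at genes such as Naglu and Gm2a, where Control is highest.

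Summed over the 38 genes, the level was 16110 ± 2758 CPM in Acacetin, 17815 ± 1755 CPM in OGD and 16814 ± 308 CPM in Control (SD, n = 4 each). The libraries ran from 12983 to 19011 CPM in Acacetin, from 15774 to 19930 CPM in OGD and from 16483 to 17174 CPM in Control, so the Control range lay within both others. The set held 1.43% to 1.95% of the reads of a library. In TMM-scaled CPM, the spread among replicates was widest in Acacetin for 33 of the 38 genes. On that scale the median coefficient of variation was 20.0% in Acacetin, 11.0% in OGD and 9.49% in Control. The set's share of reads, which is not TMM-scaled, had an SD of 0.101 percentage points in Acacetin, 0.217 in OGD and 0.101 in Control. For the sum, then, the wide spread of Acacetin was seen only with the scaling. The same measure over all tested genes is not given, so this spread need not be particular to the set. Acacetin 1 and Acacetin 3 were the libraries at the ends of the length slope. In TMM-scaled CPM, 28 genes were higher in Acacetin 1 and 10 lower. The median log2 difference was 0.48, with a range from -3.09 (Mitf) to 1.15 (Naglu). In unscaled share of reads the set was lower in Acacetin 1 (1.62%) than in Acacetin 3 (1.71%), so the direction for the set depends on the scaling. Across the 38 genes the log2 difference between these libraries had a Spearman correlation of -0.371 with log2 gene length, and across all 13249 tested genes one of -0.522. Genes are not independent replicates, so these correlations describe 2 libraries only.

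**Figure D2:**
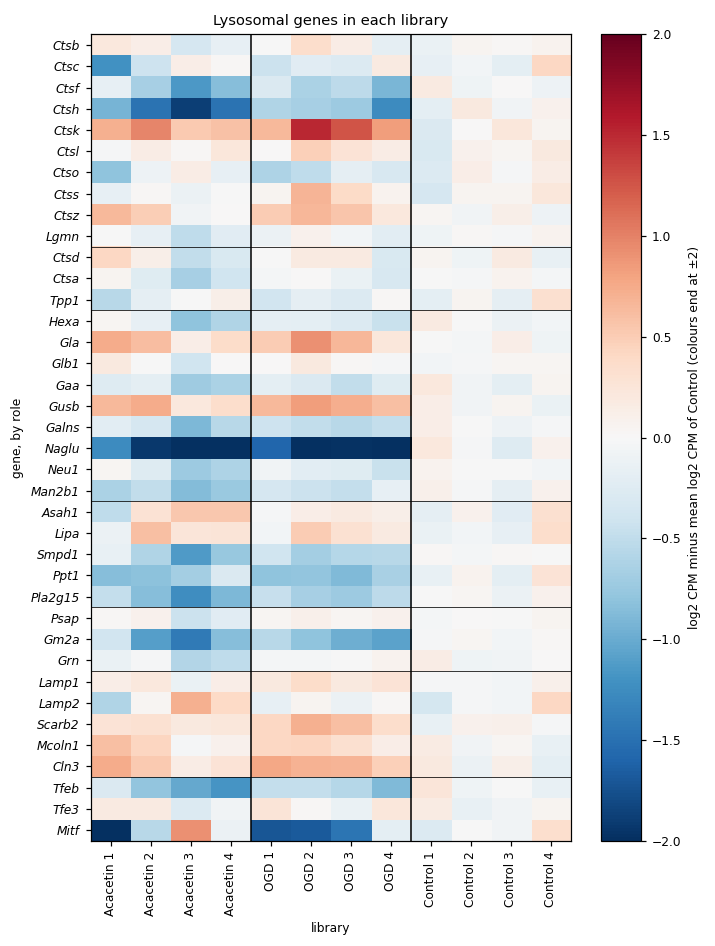
Log2 CPM minus the mean log2 CPM of Control for each of the 38 genes (down the page, by role) in each of the 12 libraries, red for above and blue for below, with colours ending at 2 in either direction. Naglu, Ctsh and Gm2a are blue and Ctsk and Gusb are red in each OGD and Acacetin library, and Mitf differs among the Acacetin libraries.

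OGD against Control asked what deprivation and re-oxygenation did to these genes. Calls were made by edgeR's quasi-likelihood test where the adjusted p (Benjamini-Hochberg, over all 13249 tested genes) was under 0.05, and all 38 genes passed the filter on low counts. In OGD 5 of the 38 rose, 10 fell and 23 were not called. Over all tested genes 28.8% were called, 16.2% higher and 12.6% lower. The median log2 fold change was -0.07 over the 38 genes and 0.03 over all tested genes. The groups did not overlap at 18 of the 38 genes, against 36.0% of all tested genes, and the unadjusted p was under 0.05 at 18 of 38, against 39.3%. Acacetin against Control gave 4 rises, 11 falls and 23 genes not called, with a median of -0.14 against 0.08 over all genes. There 26.9% of all tested genes were called, 14.0% higher and 12.9% lower. At 14 of the 38 genes Acacetin and Control did not overlap, against 25.7% of all tested genes, and the unadjusted p was under 0.05 at 16 of 38, against 40.1%. Both comparisons use the same Control libraries, so the comparisons are not independent and each gene's values stand side by side. In bulk RNA, fewer cells that express a gene and less RNA per cell cannot be told apart. Among the 9 myeloid markers, Csf1r rose in OGD (log2 1.12 ± 0.14) and in Acacetin (0.60 ± 0.14) against Control, Cx3cr1 fell (-1.07 ± 0.24 and -0.68 ± 0.24), Aif1 fell in Acacetin (-1.31 ± 0.23), and the other 6 were not called. The Acacetin call of Cx3cr1 (adjusted p 0.0461) was kept in 5 of 19 alternatives, with an adjusted p of up to 0.215. In OGD against Control, Aif1 (-0.59 ± 0.22, adjusted p 0.0638) and Spi1 (0.39 ± 0.18, adjusted p 0.114) passed in 8 and 4 of 19 alternatives. The replicate number as a block was among these for both (0.0419 and 0.0468). Tyrobp passed in 2 of 19 alternatives in each comparison with Control. The part of the myeloid markers in the results was not tested. CPM after a mean below are ± SD with n = 4, log2 fold changes are ± SE, and adjusted p are edgeR's.

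**Figure D3:**
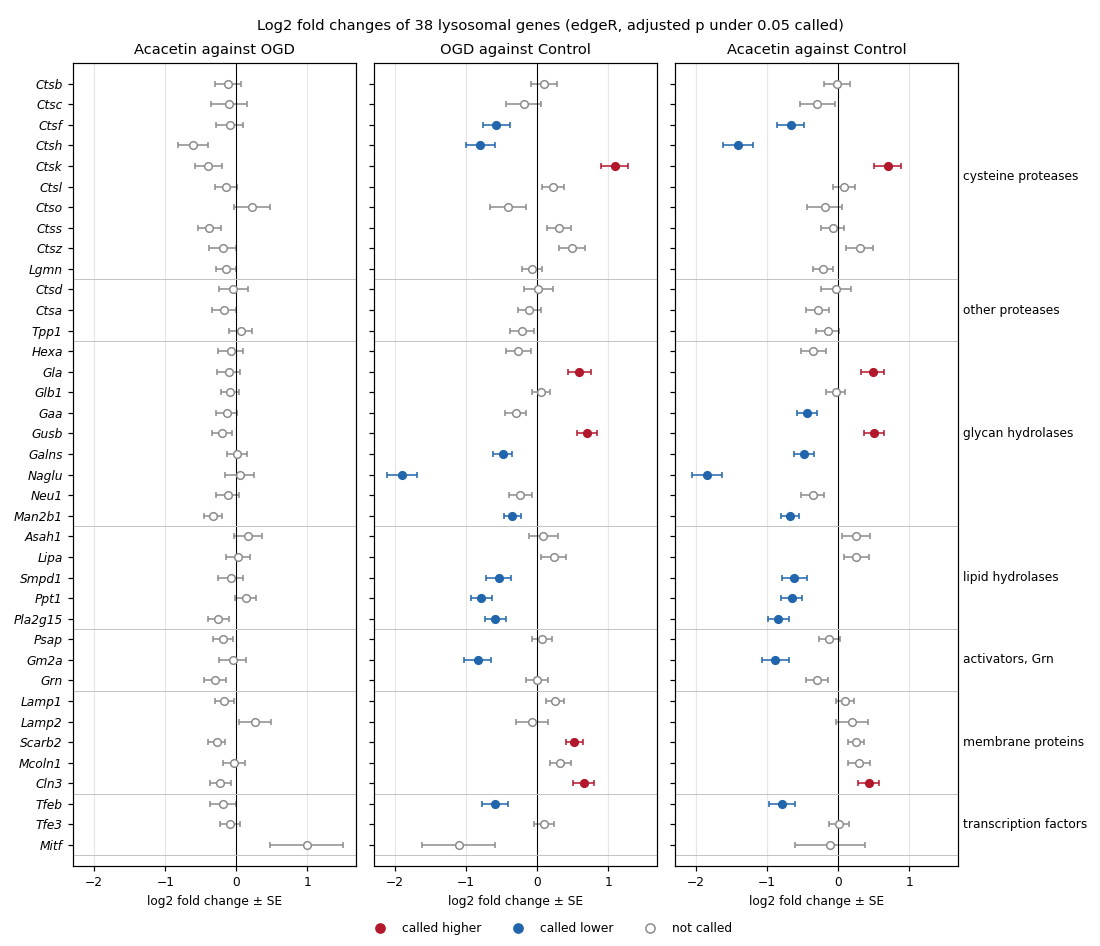
Log2 fold change with SE (horizontal axis) of the 38 genes by role, in panels from left to right for Acacetin against OGD, OGD against Control and Acacetin against Control; filled red is called higher, filled blue called lower and open grey not called. No gene is filled in the first panel, while 5 are red and 10 blue in the second and 4 red and 11 blue in the third.

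Among the 10 cysteine proteases, 1 rose and 2 fell in OGD, with a median log2 fold change of 0.01 over the 10. That is 30% called, against 28.8% of all tested genes. Ctsk (ENSMUSG00000028111.5, chromosome 3) encodes cathepsin K, a collagen-cutting protease best known from osteoclasts. It measured 272, 327, 239 and 251 CPM in Acacetin 1 to 4, 262, 474, 398 and 299 CPM in OGD 1 to 4, and 137, 168, 194 and 174 CPM in Control 1 to 4. Every Acacetin and OGD library was above every Control library, and the Acacetin and OGD ranges overlapped. Ctsk was 2.13-fold higher in OGD than in Control (log2 1.09 ± 0.19, adjusted p 0.000953) and 1.62-fold higher in Acacetin than in Control (0.69 ± 0.19, adjusted p 0.0154). The second call was lost without Acacetin 2 or without Control 1 (adjusted p 0.0548 and 0.0535).

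Ctsh (ENSMUSG00000032359.15, chromosome 9), for cathepsin H, an aminopeptidase, moved the other way. Its levels were 11.9, 8.18, 6.13 and 8.14 CPM in Acacetin, 14.9, 14.3, 13.7 and 9.45 CPM in OGD, and 19.7, 25.8, 21.5 and 24.2 CPM in Control. No OGD or Acacetin library reached the lowest Control library. The log2 fold change was -0.80 ± 0.21 in OGD (adjusted p 0.0101) and -1.41 ± 0.21 in Acacetin (adjusted p 0.000578) against Control. Ctsf (ENSMUSG00000083282.4, chromosome 19), for cathepsin F, had 67.2, 47.8, 33.9 and 42.0 CPM in Acacetin, 62.1, 48.8, 52.5 and 40.2 CPM in OGD, and 85.7, 70.9, 76.3 and 70.4 CPM in Control. All Control libraries were above all others. It fell by 0.58 ± 0.19 on the log2 scale in OGD (adjusted p 0.0354) and by 0.67 ± 0.19 in Acacetin (adjusted p 0.0192). The OGD call was lost without OGD 2, OGD 4, Control 1, Control 2 or Control 3 (adjusted p 0.0590 to 0.0955), and the Acacetin call without Acacetin 4 or Control 1 (0.0563 to 0.0589).

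Ctsb, Ctsz, Ctss, Ctsl and Lgmn, also abundant, were not called. Ctsb, for cathepsin B, averaged 3585 ± 629 CPM in Acacetin, 3879 ± 611 CPM in OGD and 3640.4 ± 221 CPM in Control. Ctsz, for the carboxypeptidase cathepsin X, had 2329, 2088, 1417 and 1494 CPM in Acacetin, 2109, 2360.4, 2179 and 1725 CPM in OGD, and 1532, 1417, 1620.5 and 1388 CPM in Control. The OGD libraries all lay above Control, with a log2 fold change of 0.49 ± 0.19 that missed the threshold (adjusted p 0.0619). It passed without OGD 4 (0.0412), with DESeq2 (0.0268), with only the 8 libraries compared (0.0128), without Acacetin 1 and 3 (0.0164), with the replicate number as a block (0.0467) and after removal of the length trend (0.00102). In Acacetin against Control, Ctsz (log2 0.30 ± 0.19, adjusted p 0.242) passed only after removal of the length trend (0.43, adjusted p 0.00548). Ctss, whose protease trims the invariant chain of MHC class II, averaged 237 ± 13.7 CPM in Acacetin, 309 ± 65.3 CPM in OGD and 250.0 ± 39.4 CPM in Control. Ctsl, for cathepsin L, averaged 905 ± 75.2 CPM in Acacetin, 998 ± 137 CPM in OGD and 853 ± 120.4 CPM in Control. Lgmn, for the asparagine-specific protease legumain, averaged 942 ± 132 CPM in Acacetin, 1041 ± 92.0 CPM in OGD and 1095 ± 49.9 CPM in Control. The groups overlapped at all but Ctsz of these 5 genes in OGD against Control. Ctsc, whose enzyme activates serine proteases of immune cells, and the sparse Ctso had log2 fold changes of -0.19 ± 0.25 and -0.42 ± 0.25 in OGD against Control, neither called.

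The 3 proteases of other classes were not called in any comparison. Over all tested genes 28.8% were called in OGD and 26.9% in Acacetin against Control. Ctsd, for the aspartic protease cathepsin D, had 3219, 2614, 1731 and 1966 CPM in Acacetin, 2406, 2729.9, 2734 and 1952 CPM in OGD, and 2509, 2282, 2751 and 2189 CPM in Control. Acacetin held both its highest and its lowest library. Ctsa, for the carboxypeptidase that protects neuraminidase and beta-galactosidase, averaged 1014 ± 214 CPM in Acacetin, 1143 ± 116 CPM in OGD and 1237 ± 44.4 CPM in Control. In Acacetin against Control it passed the threshold only without Acacetin 1 (log2 -0.42, adjusted p 0.0300). Tpp1, for tripeptidyl peptidase, averaged 68.5 ± 13.05 CPM in Acacetin, 65.6 ± 7.97 CPM in OGD and 76.0 ± 13.3 CPM in Control. The log2 fold changes of the 3 genes in OGD against Control were 0.01 ± 0.21, -0.11 ± 0.16 and -0.21 ± 0.16. Ctsd, like Ctsl and Glb1, shares exon bases with another annotated gene on the same strand, so the counts of these 3 genes are uncertain.

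The 9 glycan hydrolases moved in both directions. In OGD against Control 2 were higher, 3 lower and 4 not called (median log2 fold change -0.27). In Acacetin against Control 2 were higher, 4 lower and 3 not called (median -0.36). The called shares were 55.6% and 66.7%, against 28.8% and 26.9% of all tested genes, a difference that was not tested. Naglu (ENSMUSG00000001751.10, chromosome 11) had the largest change of all 38 genes in both comparisons. Its enzyme, alpha-N-acetylglucosaminidase, acts in heparan sulfate breakdown and is missing in a form of Sanfilippo syndrome. It measured 43.6, 27.6, 19.6 and 26.2 CPM in Acacetin, 34.8, 26.3, 26.7 and 25.0 CPM in OGD, and 121, 103, 87.5 and 111 CPM in Control. All OGD and Acacetin libraries lay far below the lowest Control library. Naglu was 3.73-fold lower in OGD than in Control (log2 -1.90 ± 0.21, adjusted p 8.45e-05) and 3.61-fold lower in Acacetin than in Control (-1.85 ± 0.21, adjusted p 0.000151). Both calls held without each library in turn.

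Gusb and Gla went up. Gusb (ENSMUSG00000025534.18, chromosome 5), for beta-glucuronidase, had 398, 425, 292 and 325 CPM in Acacetin, 396, 453, 418 and 383 CPM in OGD, and 278, 242, 264 and 232 CPM in Control. It was 1.62-fold higher in OGD (log2 0.70 ± 0.14, adjusted p 0.00254) and 1.42-fold higher in Acacetin (0.50 ± 0.14, adjusted p 0.0190) than in Control. Gla (ENSMUSG00000031266.8, chromosome X), for the alpha-galactosidase that is missing in Fabry disease, had 204, 186, 134 and 157 CPM in Acacetin, 172, 229, 192 and 141 CPM in OGD, and 120.5, 118, 134 and 115 CPM in Control. Control lay below both groups at each of these genes, narrowly so for Gla, where Acacetin 3 and Control 3 both round to 134 CPM. The log2 fold change of Gla was 0.59 ± 0.16 in OGD (adjusted p 0.0152) and 0.48 ± 0.16 in Acacetin (adjusted p 0.0423). The OGD call of Gla was lost without OGD 2 (adjusted p 0.0566), and without OGD 2 and 3 its log2 fold change was 0.37 (adjusted p 0.112). Its Acacetin call was lost without Acacetin 1, 2 or 4 or Control 1, 2 or 3 (0.0564 to 0.107), and that of Gusb without Acacetin 2 or Control 2 (0.0630 to 0.0690).

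Galns (ENSMUSG00000015027.12, chromosome 8), for a sulfatase of keratan sulfate breakdown, had 51.7, 47.5, 32.1 and 41.1 CPM in Acacetin, 44.9, 42.6, 40.9 and 43.0 CPM in OGD, and 65.7, 59.8, 56.2 and 58.8 CPM in Control. It fell by 0.49 ± 0.14 on the log2 scale in OGD (adjusted p 0.0173) and by 0.48 ± 0.14 in Acacetin (adjusted p 0.0204), with no overlap with Control. Man2b1 (ENSMUSG00000005142.11, chromosome 8), for the lysosomal alpha-mannosidase, had 59.7, 66.2, 50.9 and 55.6 CPM in Acacetin, 73.4, 68.9, 66.6 and 82.6 CPM in OGD, and 99.7, 91.5, 82.2 and 98.7 CPM in Control. OGD 4 just overlapped Control 3, and Acacetin lay below both groups. Its log2 fold change was -0.35 ± 0.12 in OGD (adjusted p 0.0447) and -0.68 ± 0.12 in Acacetin (adjusted p 0.00160). The OGD call of Man2b1 was lost without OGD 1, 2 or 3 or Control 1, 2 or 4 (adjusted p 0.0529 to 0.111). By limma on FPKM + 0.1 (0.137) it was lost too. That of Galns was lost without Control 1 (0.0527). In Acacetin, Galns was lost without Acacetin 4, Control 1 or Control 2 (0.0505 to 0.0622), and limma on FPKM + 0.1 lost both Galns (0.209) and Man2b1 (0.120).

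Gaa, for the glycogen-splitting enzyme that is missing in Pompe disease, averaged 124 ± 22.6 CPM in Acacetin, 136 ± 11.7 CPM in OGD and 168 ± 20.4 CPM in Control. It was called only in Acacetin against Control (log2 -0.44 ± 0.15, adjusted p 0.0396), with a highest Acacetin library of 146 CPM beside a lowest Control library of the same rounded value. That call was kept in 10 of 19 alternatives. It was lost without Acacetin 3 or 4 or Control 1, 2 or 4 (adjusted p 0.0547 to 0.120). Without Acacetin 1 and 3 (0.0752), with only the 8 libraries compared (0.0808) and by limma on FPKM + 0.1 (0.328) it was lost too. Hexa and Neu1, for a subunit of beta-hexosaminidase and for a sialidase, were not called, although the OGD libraries all lay below Control at both genes. Hexa averaged 431 ± 114 CPM in Acacetin, 456 ± 36.5 CPM in OGD and 549.6 ± 49.4 CPM in Control. Neu1 averaged 186 ± 46.3 CPM in Acacetin, 202 ± 21.3 CPM in OGD and 239 ± 8.50 CPM in Control. Without Acacetin 1, both passed in Acacetin against Control (adjusted p 0.0188 for Hexa and 0.00815 for Neu1), and Neu1 also without Acacetin 1 and 3 (0.0438) and after removal of the length trend (0.0499). Glb1, for beta-galactosidase, had a log2 fold change of 0.05 ± 0.13 in OGD and -0.04 ± 0.13 in Acacetin against Control.

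**Figure D4:**
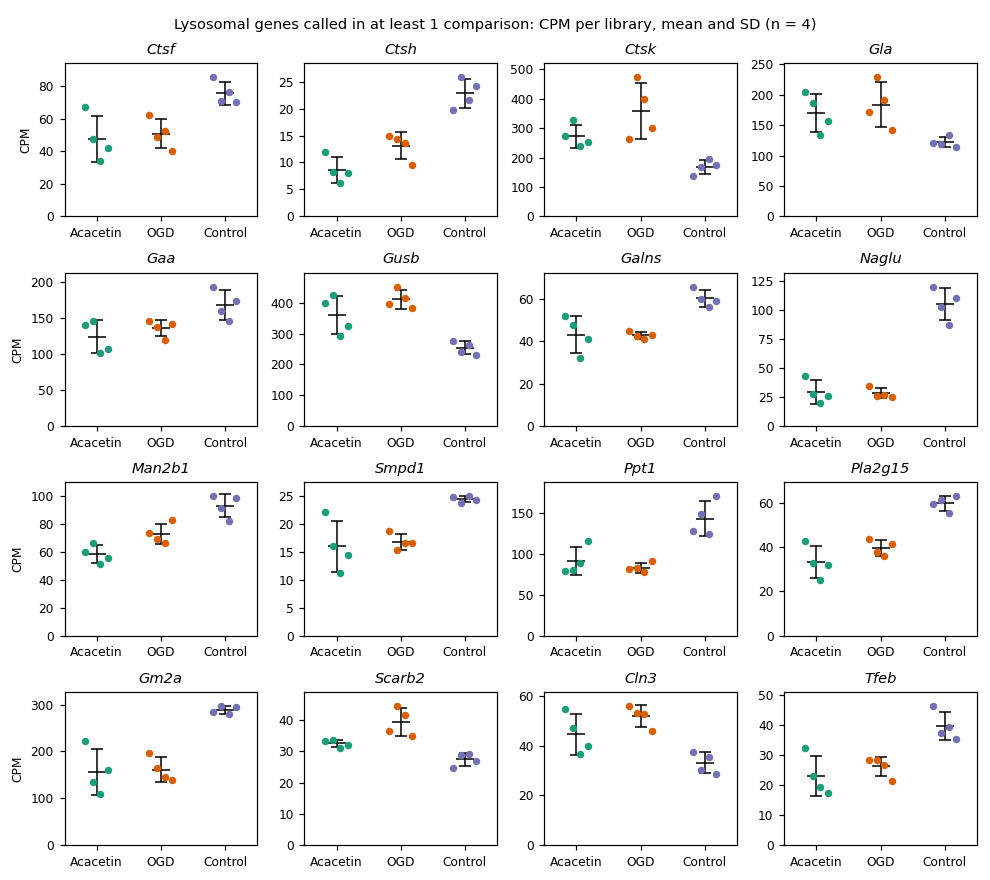
CPM (vertical axes, from 0) of the 16 genes called in at least 1 comparison, 1 panel a gene, with a point per library and the mean and SD of 4 libraries, in the order Acacetin, OGD, Control. Control is the highest group at 11 genes such as Naglu and Ppt1 and the lowest at Ctsk, Gla, Gusb, Scarb2 and Cln3.

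Of the 5 lipid hydrolases, 3 fell and 2 were not called, in OGD and likewise in Acacetin against Control. The medians were -0.54 and -0.62 on the log2 scale. The called share was 60% in both, against 28.8% and 26.9% of all tested genes, a difference that was not tested. Ppt1 (ENSMUSG00000028657.15, chromosome 4), for the thioesterase that strips palmitate from proteins and is missing in infantile neuronal ceroid lipofuscinosis, had 78.5, 80.0, 88.8 and 116 CPM in Acacetin, 80.8, 82.1, 77.3 and 90.7 CPM in OGD, and 128, 149, 124 and 171 CPM in Control. It was 1.73-fold lower in OGD (log2 -0.79 ± 0.15, adjusted p 0.00156) and 1.57-fold lower in Acacetin (-0.65 ± 0.15, adjusted p 0.00588). The annotation places 129 exon bases of Ppt1 over those of Cap1 on the opposite strand, whose own log2 fold changes were -0.18 ± 0.12 and -0.19 ± 0.12 and not called. On FPKM + 0.1, limma lost the Acacetin call of Ppt1 (adjusted p 0.176).

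Pla2g15 (ENSMUSG00000031903.8, chromosome 8), for a lysosomal phospholipase, had 42.9, 33.0, 25.3 and 32.0 CPM in Acacetin, 43.6, 37.7, 35.9 and 41.5 CPM in OGD, and 59.3, 61.3, 55.3 and 63.1 CPM in Control. Its log2 fold change was -0.59 ± 0.15 in OGD (adjusted p 0.00826) and -0.85 ± 0.15 in Acacetin (adjusted p 0.00126). Smpd1 (ENSMUSG00000037049.10, chromosome 7), for acid sphingomyelinase, had 22.1, 16.0, 11.2 and 14.4 CPM in Acacetin, 18.6, 15.3, 16.5 and 16.6 CPM in OGD, and 24.8, 23.7, 24.9 and 24.2 CPM in Control. At both genes every Control library was the higher. Smpd1 fell by 0.54 ± 0.18 on the log2 scale in OGD (adjusted p 0.0330) and by 0.62 ± 0.18 in Acacetin (adjusted p 0.0193). The OGD call of Smpd1 was lost without OGD 2, OGD 4, Control 1, Control 2 or Control 3 (adjusted p 0.0616 to 0.0889). Its Acacetin call was lost without Acacetin 4 (0.0548) and by limma on FPKM + 0.1 (0.111). Asah1, for acid ceramidase, and Lipa, for acid lipase, had log2 fold changes of 0.09 ± 0.20 and 0.23 ± 0.18 in OGD and 0.25 ± 0.20 and 0.26 ± 0.17 in Acacetin against Control, none called. Asah1 passed in Acacetin against Control only without Acacetin 1 (0.44, adjusted p 0.0223), the library where it was lowest at 30.5 CPM.

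The activator proteins and progranulin gave 1 fall among 3 genes. This share of 33.3% in each comparison with Control stands against 28.8% (OGD) and 26.9% (Acacetin) of all tested genes called. Gm2a (ENSMUSG00000000594.8, chromosome 11), for the protein that presents GM2 ganglioside to beta-hexosaminidase, had 222, 134, 109 and 160.1 CPM in Acacetin, 197, 165, 146 and 138 CPM in OGD, and 285, 298, 279 and 294 CPM in Control. The Control libraries lay close together and above all others. Gm2a was 1.79-fold lower in OGD (log2 -0.84 ± 0.19, adjusted p 0.00489) and 1.85-fold lower in Acacetin (-0.89 ± 0.19, adjusted p 0.00438), and both calls held in every alternative run. Psap, the precursor of the saposins, averaged 971 ± 154 CPM in Acacetin, 1110.4 ± 28.4 CPM in OGD and 1059 ± 26.4 CPM in Control. Grn, whose product progranulin is needed for lysosome function in microglia, averaged 966 ± 183 CPM in Acacetin, 1184 ± 43.9 CPM in OGD and 1187 ± 88.3 CPM in Control. Neither was called in any comparison.

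Of the 5 membrane protein genes, 2 rose and 0 fell in OGD, with a median log2 fold change of 0.32. That is 40% called, against 28.8% of all tested genes. Scarb2 (ENSMUSG00000029426.9, chromosome 5), for the receptor that carries glucocerebrosidase to the lysosome, had 33.2, 33.8, 31.2 and 32.1 CPM in Acacetin, 36.4, 44.7, 41.7 and 34.9 CPM in OGD, and 24.7, 28.9, 29.2 and 26.9 CPM in Control. The 3 groups did not overlap, with Acacetin between OGD and Control. Scarb2 was 1.44-fold higher in OGD than in Control (log2 0.52 ± 0.12, adjusted p 0.00474), and its log2 fold change of 0.25 ± 0.12 in Acacetin against Control missed the threshold (adjusted p 0.130). Without OGD 2 and 3, which are rich in 18S RNA, the OGD value was 0.38 with an adjusted p of 0.0581, and limma on FPKM + 0.1 gave 0.36 and 0.199.

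Cln3 (ENSMUSG00000030720.17, chromosome 7), for the membrane protein that is defective in juvenile neuronal ceroid lipofuscinosis, had 54.8, 47.1, 36.5 and 39.7 CPM in Acacetin, 56.0, 53.2, 52.8 and 45.8 CPM in OGD, and 37.6, 30.4, 35.5 and 28.7 CPM in Control. OGD lay above Control, while Acacetin 3 fell below Control 1. The log2 fold change was 0.65 ± 0.15 in OGD (adjusted p 0.00451) and 0.43 ± 0.15 in Acacetin (adjusted p 0.0421). The Acacetin call was lost without Acacetin 1, Acacetin 2, Control 2 or Control 3 (adjusted p 0.0620 to 0.120) and after removal of the length trend (0.151), and the OGD call on FPKM + 0.1 (0.0627). The annotation places 442 exon bases of Cln3 over those of Apobr on the opposite strand, whose log2 fold changes of 0.19 ± 0.11 in OGD and -0.11 ± 0.11 in Acacetin against Control were not called.

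The main structural membrane proteins were not called. Lamp1 had 713, 755, 599 and 716 CPM in Acacetin, 747, 839, 748 and 788 CPM in OGD, and 640.3, 643, 633 and 702 CPM in Control. Each OGD library was above each Control library, at a log2 fold change of 0.25 ± 0.13 (adjusted p 0.155 by edgeR and 0.0298 by DESeq2). Lamp2 had 36.0, 56.1, 89.5 and 71.8 CPM in Acacetin, 48.5, 56.8, 50.2 and 55.3 CPM in OGD, and 43.0, 53.8, 52.6 and 73.0 CPM in Control. Its Acacetin libraries spanned the values of the other groups. Mcoln1, for a calcium channel of the lysosomal membrane, averaged 36.6 ± 7.38 CPM in Acacetin, 37.4 ± 3.54 CPM in OGD and 29.9 ± 2.87 CPM in Control, with log2 fold changes of 0.32 ± 0.15 in OGD and 0.29 ± 0.15 in Acacetin against Control that were not called.

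Of the 3 transcription factors, Tfeb fell. This share of 33.3% in each comparison with Control stands against 28.8% (OGD) and 26.9% (Acacetin) of all tested genes called. Tfeb (ENSMUSG00000023990.19, chromosome 17) had 32.2, 22.9, 19.3 and 17.4 CPM in Acacetin, 28.4, 28.3, 26.6 and 21.4 CPM in OGD, and 46.4, 37.3, 39.4 and 35.4 CPM in Control. Control lay above both groups. The log2 fold change was -0.60 ± 0.18 in OGD (adjusted p 0.0242) and -0.79 ± 0.18 in Acacetin (adjusted p 0.00659). The OGD call was lost without OGD 4 or Control 1 (adjusted p 0.0668 to 0.0763). Tfe3 averaged 27.2 ± 4.00 CPM in Acacetin, 28.9 ± 3.53 CPM in OGD and 27.0 ± 2.61 CPM in Control and was not called. Mitf had 0.570, 1.75, 4.86 and 2.36 CPM in Acacetin, 0.789, 0.799, 0.937 and 2.24 CPM in OGD, and 2.13, 2.57, 2.46 and 3.25 CPM in Control. It was low in 3 OGD libraries and in Acacetin 1, and its log2 fold change of -1.10 ± 0.51 in OGD was not called (adjusted p 0.127). It passed without OGD 4 (-1.63, adjusted p 0.0394), with only the 8 libraries compared (-1.09, 0.0218) and without Acacetin 1 and 3 (-1.09, 0.0184). Activity of these factors depends on where the protein sits in the cell, which RNA levels do not measure.

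Acacetin against OGD asked whether the compound altered these genes after deprivation. By edgeR 0 of the 38 genes and 0% of the 13249 tested genes were called. At an unadjusted p under 0.05 there were 4 of the 38 genes and 685 of all genes (5.17%). DESeq2 called 0 of the 38 and 32 of all genes. The log2 fold change was negative at 29 of the 38 genes, with a median of -0.11 against -0.02 over all tested genes, while on the authors' FPKM scale 24 of the 38 signs turned. That scale also moved the median of all genes to 0.15 with 1 added and 0.24 with 0.1 added, and the median of the 38 to 0.14 and 0.16.

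The 4 genes at an unadjusted p under 0.05 were all lower in Acacetin than in OGD. Ctsh had a log2 fold change of -0.61 ± 0.21 (unadjusted p 0.0107, adjusted p 0.826). Man2b1 had one of -0.33 ± 0.12 (unadjusted p 0.0184, adjusted p 0.8287). Ctss had one of -0.38 ± 0.16 (unadjusted p 0.0343, adjusted p 0.8287), with 222, 251, 229 and 246 CPM in Acacetin and 257, 395, 324 and 259 CPM in OGD. Scarb2 had one of -0.27 ± 0.12 (unadjusted p 0.0347, adjusted p 0.8287). Acacetin and OGD did not overlap at Ctss, Man2b1 and Scarb2, 3 of the 38 genes, against 2.35% of all tested genes. At Naglu, the gene furthest from Control, the log2 fold change between Acacetin and OGD was 0.05 ± 0.21 (adjusted p 0.974).

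The counts rested on single libraries in places. In OGD against Control the number of falls was 10 with all libraries, 5 without Control 1 and 4 without OGD 2 and 3. Without that pair of libraries the calls of Ctsf, Gla, Galns, Man2b1, Smpd1, Pla2g15, Scarb2 and Tfeb were lost (adjusted p 0.0571 to 0.227). In Acacetin against Control the rises numbered 4 with all libraries and 0 without Acacetin 2, 2 without Control 1, 1 without Control 2 and 2 without Control 3, and the falls numbered 11 with all libraries and 7 without Acacetin 4. Calls that held in all 19 alternatives were Ctsh, Ctsk, Gusb, Naglu, Ppt1 and Gm2a in OGD against Control. They were Ctsh, Naglu, Pla2g15, Gm2a and Tfeb in Acacetin against Control.

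Other genes of the pathway were taken from lists of general knowledge, and their counts stand against 28.8% of all tested genes called in OGD and 26.9% in Acacetin. A list of further hydrolases also holds some genes for proteins that tag or aid such enzymes. Of its 31 tested genes, 6 rose and 4 fell in OGD, and 4 rose and 6 fell in Acacetin, each against Control. In both comparisons 32.3% were called, with medians of -0.08 and -0.22 on the log2 scale. Arsa, for the sulfatide-splitting arylsulfatase, had 32.7, 31.1, 21.7 and 26.4 CPM in Acacetin, 26.9, 22.8, 23.3 and 22.3 CPM in OGD, and 48.8, 56.7, 47.2 and 56.0 CPM in Control. Its log2 fold change was -1.13 ± 0.14 in OGD (adjusted p 0.000182) and -0.90 ± 0.14 in Acacetin (adjusted p 0.000756). Idua, which acts on glycans, had a log2 fold change of -0.92 ± 0.16 in OGD and of -1.08 ± 0.16 in Acacetin. Acp2, for a lysosomal acid phosphatase, went the other way, at 1.01 ± 0.16 in OGD and 0.93 ± 0.15 in Acacetin.

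Of 18 genes of the proton pump, 4 rose and 0 fell in OGD, and 3 rose and 1 fell in Acacetin (22.2% called in both, medians 0.17 and 0.18). The OGD rises of Atp6v1h and Atp6ap1 were kept in 6 and 12 of 19 alternatives, the Acacetin rise of Atp6v1h in 11, and the Acacetin fall of Atp6v0a1 in 7. Atp6v0a2, for a membrane subunit of the pump, had 16.7, 22.4, 19.5 and 21.7 CPM in Acacetin, 17.3, 22.9, 20.9 and 26.2 CPM in OGD, and 7.41, 5.48, 8.69 and 5.57 CPM in Control. It was 3.22-fold higher in OGD (log2 1.69 ± 0.19, adjusted p 9.24e-05) and 2.96-fold higher in Acacetin (1.57 ± 0.19, adjusted p 0.000206) than in Control. Tcirg1, another form of that subunit, averaged 247 ± 63.2 CPM in Acacetin, 275 ± 28.0 CPM in OGD and 155 ± 28.5 CPM in Control. Its Acacetin call was lost without Acacetin 2 or Control 2 (adjusted p 0.0549 to 0.0607).

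Of 33 further membrane and transport genes, 10 rose and 2 fell in OGD, and 8 rose and 2 fell in Acacetin (36.4% and 30.3% called, medians 0.24 and 0.19). Slc11a1, for a metal transporter of the phagosome, had 517, 579, 361 and 367 CPM in Acacetin, 481, 573, 533 and 471 CPM in OGD, and 257, 211, 249 and 187 CPM in Control. It was 2.28-fold higher in OGD (log2 1.19 ± 0.18, adjusted p 0.000380) and 2.02-fold higher in Acacetin (1.01 ± 0.18, adjusted p 0.00129). The chloride exchanger Clcn7 had log2 fold changes of 0.61 ± 0.12 in OGD and 0.53 ± 0.12 in Acacetin, and the channel Mcoln3 of 0.92 ± 0.22 and 1.18 ± 0.22. Limma on FPKM + 1 lost both calls of Clcn7 (adjusted p 0.183 and 0.0591) and the OGD call of Mcoln3 (0.153), which was also lost without OGD 2 and 3 (0.0846). Cln6, whose protein sits in the endoplasmic reticulum, fell by 1.00 ± 0.16 on the log2 scale in OGD and by 0.90 ± 0.16 in Acacetin.

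Of 24 sorting and fusion genes, 4 rose and 2 fell in OGD, and 3 rose and 2 fell in Acacetin (25.0% and 20.8% called, medians 0.08 and 0.14). M6pr, a receptor for the phosphorylated mannose tag, had 139, 160.2, 132 and 138 CPM in Acacetin, 143, 187, 152 and 136 CPM in OGD, and 79.2, 84.7, 85.5 and 95.6 CPM in Control. Its log2 fold change was 0.84 ± 0.13 in OGD (adjusted p 0.000448) and 0.72 ± 0.13 in Acacetin (adjusted p 0.00144). Vps33a, of the tethering complex for lysosome fusion, had log2 fold changes of 1.13 ± 0.14 in OGD and 0.95 ± 0.14 in Acacetin. The sorting adaptor Gga1 fell by 0.72 ± 0.16 on the log2 scale in OGD and by 0.63 ± 0.16 in Acacetin, where limma on FPKM + 1 lost the call (adjusted p 0.0884).

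Of 21 genes around TFEB and mTORC1, 5 rose and 1 fell in OGD, and 4 rose and 1 fell in Acacetin (28.6% and 23.8% called, medians 0.05 and 0.24). Flcn, for folliculin, which lets mTORC1 act on TFEB, had 47.9, 58.1, 41.5 and 38.4 CPM in Acacetin, 54.7, 60.9, 59.8 and 58.6 CPM in OGD, and 20.9, 19.2, 24.7 and 17.5 CPM in Control. It was 2.84-fold higher in OGD (log2 1.51 ± 0.15, adjusted p 4.80e-05) and 2.26-fold higher in Acacetin (1.17 ± 0.15, adjusted p 0.000260). Mlst8, for a subunit of the mTOR complexes, had log2 fold changes of 1.33 ± 0.18 in OGD and 0.87 ± 0.18 in Acacetin. Of 5 protease inhibitor genes tested, 0 were called by edgeR in either comparison, and 0 of them had an unadjusted p under 0.05.

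**Figure D5:**
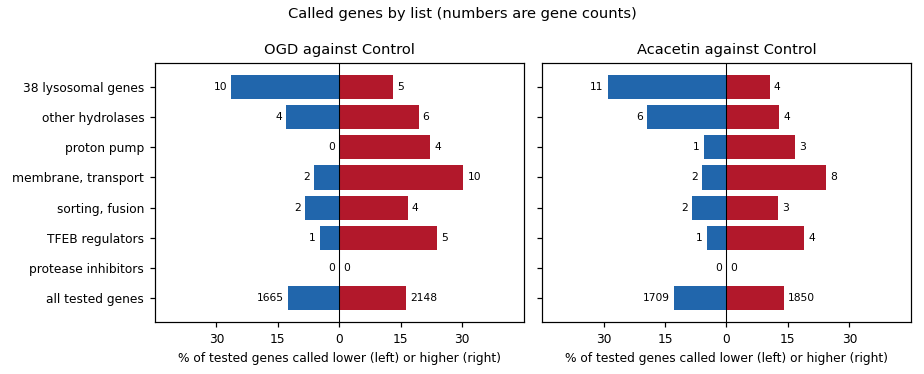
Share of each list's tested genes called lower (blue, left) or higher (red, right) by edgeR in OGD against Control and in Acacetin against Control, in percent, with the number of genes at each bar. The 38 genes have more falls (10 and 11) than rises (5 and 4). The list of further hydrolases, which also holds some genes for helper proteins, has 6 rises and 4 falls in OGD. In Acacetin it has 4 rises and 6 falls. The proton pump, membrane and transport, sorting and TFEB regulator lists have more rises than falls, as do all tested genes (16.2% and 12.6% in OGD, 14.0% and 12.9% in Acacetin); no difference between lists was tested.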

How the data were processed

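RNA of BV2 cells was sequenced as stranded mRNA libraries, per the labels' protocols. The tools bcl2fastq, HISAT2 and DESeq2 and the build GRCm39 are listed, per the submitters' processing notes, with no version or role. Which read counter, annotation and strand setting were used is not given in the sources used here. Raw read counts per gene make up 1 deposited table, and the other deposited table holds the authors' FPKM, scaled by gene length and library depth. Of the columns, 0 matched no library. Symbols and chromosomes come from the deposited table, which gives no positions.

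All 12 libraries entered 1 edgeR 4.0.16 quasi-likelihood fit (R 4.3.3, TMM, a mean per group). The filterByExpr function (minimum count 10, minimum total 15) kept 13249 genes. Tests were two-sided with Benjamini-Hochberg adjustment over all of them. As the reads carry no molecular identifiers, depth bears on counting error only. Replicates of a group differed by more than sampling noise. The labels give replicate numbers in each group with no word on what they share. In OGD and Control the deviations of same-numbered libraries from their group means correlated at 0.113 to 0.571, so the blocked value is given where it changes a call in OGD against Control.

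The alternatives were DESeq2 1.42.0, its size factors in edgeR, no filter, a mean of at least 1 CPM, only the 8 libraries compared, the replicate number as a block, limma 3.58.1 on log2(FPKM + 1) or log2(FPKM + 0.1), a length trend removed (lowess span 0.5), pairs of libraries left out, and each library left out. The members, lists and alternatives were chosen with earlier results of these data known. All 38 members could be named, and of each other list up to 4 called genes with the smallest p per comparison with Control, of which 1 is not reported here. RefSeq start windows and the GENCODE annotation used for exon overlaps are of GRCm38 and were not mixed with the build of the counts. By that annotation 11 of the 38 share exon bases with another gene, 3 of them on the same strand (Ctsd, Ctsl and Glb1).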

Additional observations from a re-analysis of the deposited data

Results flagged for a closer look

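Among 114 combinations of gene and group, 2 held a library whose gap to the nearest other took up more of the group's range than Dixon's critical value allows for 4 libraries. Chance flags about 1 in 20 such groups. Lamp1 was highest in Control 4 at 702 CPM, with a gap share of 0.851. Mitf was highest in OGD 4 at 2.24 CPM, with a gap share of 0.898.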

How the results depend on the processing

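The direction of every called gene among the 38 held in all 19 alternatives of each comparison with Control, and no called value reversed. The number of called members in OGD against Control was 15. It was 7 without OGD libraries 2 and 3, which leaves fewer samples, and 10 to 14 over the fits that leave out 1 library each. In Acacetin against Control it was 15. There it was 9 by limma on log2(FPKM + 0.1), the cause of which was not tested, and 10 to 17 over the fits that leave out 1 library each. In Acacetin against OGD it was 0 in every alternative, the fits that leave out 1 library (0 to 0) included. The deviations of same-numbered libraries correlated at 0.113 to 0.571 in OGD and Control. In the other comparisons the correlations ran from -0.143 to 0.453 (Acacetin and OGD) and from -0.336 to 0.506 (Acacetin and Control). Whether a number marks something shared cannot be told from these values. Of 12 libraries, 5 correlated best with their own number. With the replicate block, 16 members were called in OGD against Control, 0 in Acacetin against OGD and 16 in Acacetin against Control. The block added Ctsz in OGD against Control and Neu1 in Acacetin against Control (adjusted p 0.0371) and changed no other call among the 38. Signs changed only among members that were not called.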
